A study of Homo sapiens with 42 samples.

Results

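The inner transition regions of the acrocentric chromosomes are stretches between satellite arrays around the centromeres and on the short arms of chromosomes 13, 14, 15, 21 and 22. They were taken from a deposited table of read counts as the rows whose names start with ct_ for these chromosomes and carry neither p_arm nor q_arm. This gave 328 of the 2523 regions in the table: 47 on chromosome 13, 75 on chromosome 14, 36 on chromosome 15, 68 on chromosome 21 and 102 on chromosome 22. Region names follow the table, so ct_22_99 is transition region 99 of chromosome 22 in the T2T-CHM13 build. The table gives neither coordinates nor lengths, so levels are reads that fell in a region and were not scaled per length.

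The reads came from KG-1 cells, a human line grown from acute myelogenous leukaemia, kept for 1 h in 100 µM etoposide, in 20 µM mitoxantrone or in vehicle. Topoisomerase II was pulled down with an antibody to its alpha isoform (TOP2A) or its beta isoform (TOP2B), and input DNA was sequenced beside it. The etoposide series held 4 replicas and the mitoxantrone series 3. Each replica had 6 libraries, TOP2A, TOP2B and input without and with drug, which made 42 libraries in 12 groups of 3 or 4. All groups, the controls included, shared the cell line, sonication, release of blocked DNA ends with the enzyme TDP2 and digestion with BsmAI. Reads were 38 bp in etoposide replica 1, 100 bp in mitoxantrone replica 1 and 50 bp in the others. Whether replicas were separate cultures is not said in the labels, so p-values measure the spread between these libraries, which may be technical. The table holds no genes, so no marker of the cell line was measured.

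Acrocentric chromosomes have their centromere close to one end, and their short arms carry the ribosomal DNA arrays and large blocks of satellite DNA. Topoisomerase II passes a DNA duplex through a transient break in another and stays bound to the broken ends while it does so. TOP2A is the isoform of dividing cells that separates sister chromatids, and TOP2B is found in dividing and resting cells alike. Etoposide and mitoxantrone are poisons of the enzyme: they hold it on the broken DNA, and mitoxantrone also intercalates between base pairs.

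The members were covered at very different depths. Reads assigned to any region ranged from 23900 to 3207823 per library (median 351072), and reads in the 328 members from 1176 to 194786. Libraries under 100000 region reads numbered 6: TOP2A with drug in etoposide replica 2 (71055), TOP2A without drug (95012) and TOP2A, TOP2B and input with drug (23900, 39003 and 77373) in etoposide replica 3, and TOP2A without drug in mitoxantrone replica 2 (43988). Reads set aside for low mapping quality made up 21.1 to 68.3% of all reads, and were highest in mitoxantrone replica 1, at 54.5 to 68.3%. None of 54 pairs of libraries of the same group held identical counts. Of the 328 members, 18 had no read in any library, 71 averaged under 1 read per library, 184 averaged at least 10, 77 at least 50 and 6 at least 1000, and 75 had reads in all 42 libraries. Of the 18 without a read, 6 lie on chromosome 21.

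Reads were concentrated in a few members at the long-arm end of the numbering. Transition rows with p_arm in the name exist for 19 of the 24 chromosomes and always have number 1, q_arm rows exist for all 24 and always have the highest number, and the 5 acrocentric chromosomes have no p_arm row. By these names the members run from the short-arm side at number 1 to the neighbour of the long arm at the highest number. The 5 last members of each chromosome, 25 in all, held 77.5% of the 1709765 reads in members: 88.4% of those of chromosome 13, 87.5% of chromosome 15, 75.2% of chromosome 22 and 70.0% of chromosome 21. Chromosome 14 stood apart, with 15.1% in its last 5 members and 38.0% in the members below the middle of its numbering. No chromosome 14 member averaged 1000 reads, and its highest, ct_14_26, averaged 243 reads per library. Over all chromosomes the 165 members below the middle of the numbering held 10.0% of member reads.

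Just 5 members held 65.9% of member reads: ct_13_47 with 21.4%, ct_22_99 with 15.3%, ct_15_35 with 10.8%, ct_22_102 with 9.29% and ct_15_36 with 9.19%. The next was ct_21_66 with 2.79%, followed by ct_22_98 with 1.99%. On chromosome 13 the last member, ct_13_47, took 79.8% of the chromosome's member reads. On chromosome 15 the last 2, ct_15_35 and ct_15_36, took 44.9% and 38.2%. By chromosome, members of 22 held 35.9% of member reads, of 13 26.8%, of 15 24.1%, of 21 6.78% and of 14 6.43%. Region lengths are not in the table, so these shares say where reads fell and not how densely.

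**Figure D1:**
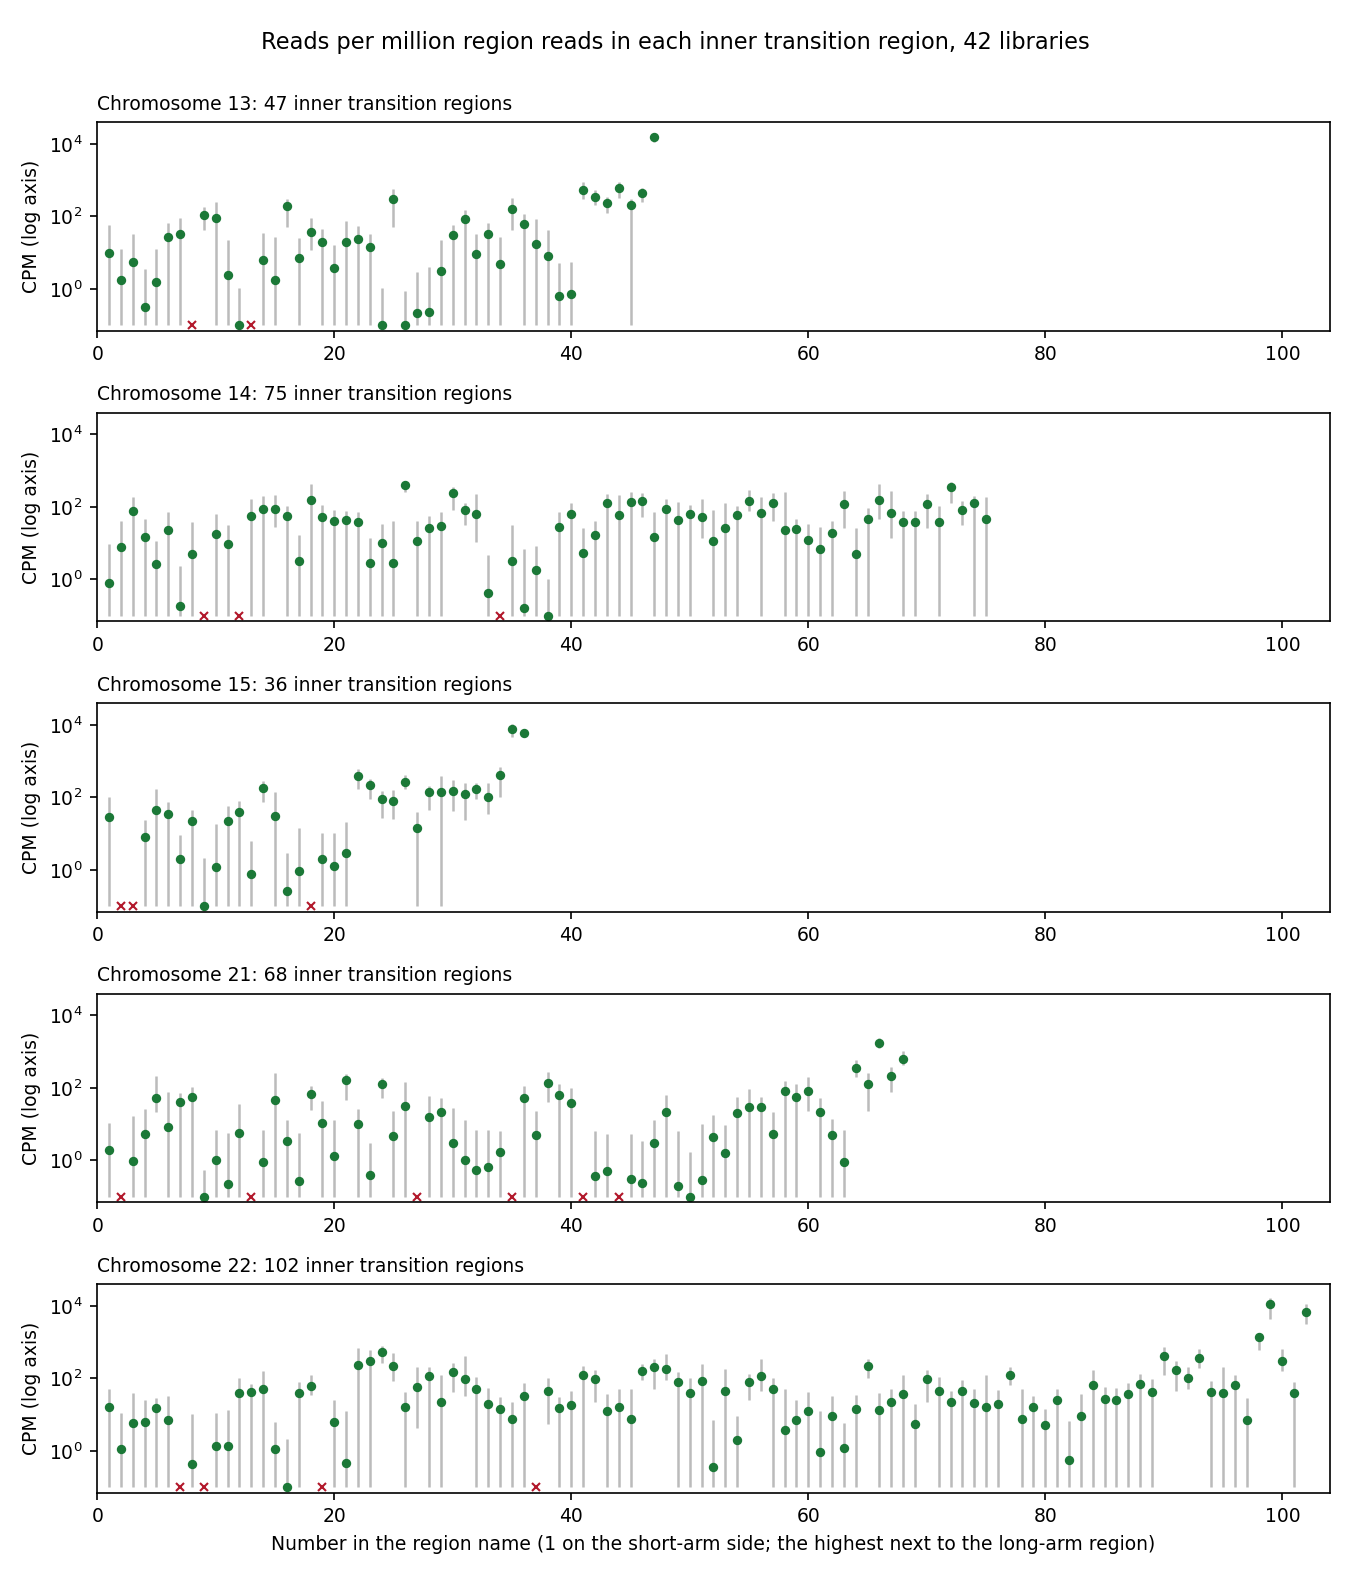
Level as reads in 1000000 region reads (CPM, log axis) of each member against the number in its name, one panel per chromosome. Points are means over 42 libraries, bars run from the lowest to the highest library, values under 0.1 CPM are drawn at 0.1, and crosses mark the 18 members with no read. The highest points sit at the right end on chromosomes 13, 15, 21 and 22 (ct_13_47, ct_15_35, ct_21_66 and ct_22_99) and are missing from chromosome 14.

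The members together took 4.92 to 8.66% of a library's region reads (median 7.14%). The lowest share was that of TOP2A with drug in etoposide replica 3, at 4.92% (Wilson 95% interval 4.65 to 5.20), and the highest that of TOP2A without drug in mitoxantrone replica 1, at 8.66% (8.58 to 8.74). These intervals cover counting error only, since reads copied in PCR are not independent molecules. All 6 libraries of mitoxantrone replica 1, the replica with 100 bp reads, lay between 7.73 and 8.66%. There the members held 0.314 to 0.337 times the reads of the 436 inner transition regions of the other autosomes, against 0.252 to 0.312 times in the other 36 libraries. Input libraries ran from 5.98 to 8.09%, inside the ranges of TOP2A (4.92 to 8.66%) and TOP2B (5.07 to 8.39%).

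In 3 of the 21 drug pairs the libraries of a replica went against each other: over the 547 regions averaging at least 50 reads, the deviations of the libraries with and without drug from their group means correlated below 0. These were TOP2A of etoposide replica 3 (-0.22) and TOP2B and input of etoposide replica 4 (-0.36 and -0.58), and whether libraries were exchanged was not tested. The other 18 correlations were 0.14 to 0.95. The members' shares in the etoposide series are given by replica, while fitted changes pool the 4 replicas.

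With etoposide the members' share of reads fell in all 3 kinds of library in replica 3 and in TOP2B and input of replica 4, while replicas 1 and 2 changed by at most 0.11 on the log2 scale. In TOP2A the share went from 7.02 to 7.14% in replica 1, from 6.15 to 6.64% in replica 2, from 7.48 to 4.92% in replica 3 and from 7.55 to 7.47% in replica 4. In TOP2B it went from 7.14 to 7.09%, from 6.14 to 6.15%, from 7.30 to 5.07% and from 7.52 to 6.46%. Input, which holds no pulldown, went from 7.76 to 7.83%, from 6.01 to 5.98%, from 7.20 to 6.51% and from 7.92 to 6.27%. The mean log2 change within replicas was -0.12 (SD 0.33, n = 4) in TOP2A, -0.19 (SD 0.25) in TOP2B and -0.12 (SD 0.16) in input, each smaller than its SD. In the 323 members outside the 5 largest, TOP2A was lower with etoposide in 4 of 4 replicas, by log2 changes of -0.23, -0.08, -0.37 and -0.18 (mean -0.21, SD 0.12). Their mean change was -0.13 in TOP2B (SD 0.19, lower in 2 of 4) and 0.04 in input (SD 0.14, lower in 2 of 4). Without replica 3 the TOP2A mean over all members was 0.04 and the TOP2B mean -0.08, and without replica 4 the input mean was -0.05, so the fall in the TOP2A mean rested on replica 3, whose TOP2A library with drug had 1176 member reads.

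With mitoxantrone the share fell in replica 1 and rose in replicas 2 and 3, in all 3 kinds of library each time. TOP2A went from 8.66 to 8.04%, from 6.37 to 7.43% and from 6.08 to 6.77% in replicas 1, 2 and 3. TOP2B went from 8.39 to 8.16%, from 7.56 to 7.96% and from 6.06 to 6.89%. Input went from 8.09 to 7.73%, from 7.75 to 7.84% and from 6.07 to 6.71%. The mean log2 change was 0.09 (SD 0.17, n = 3) in TOP2A, 0.07 (SD 0.11) in TOP2B and 0.03 (SD 0.11) in input, each below its SD, and 2 of 3 replicas rose for each kind. In replica 3 the pulldowns rose on the log2 scale by 0.16 (TOP2A) and 0.18 (TOP2B), and input by 0.14.

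**Figure D2:**
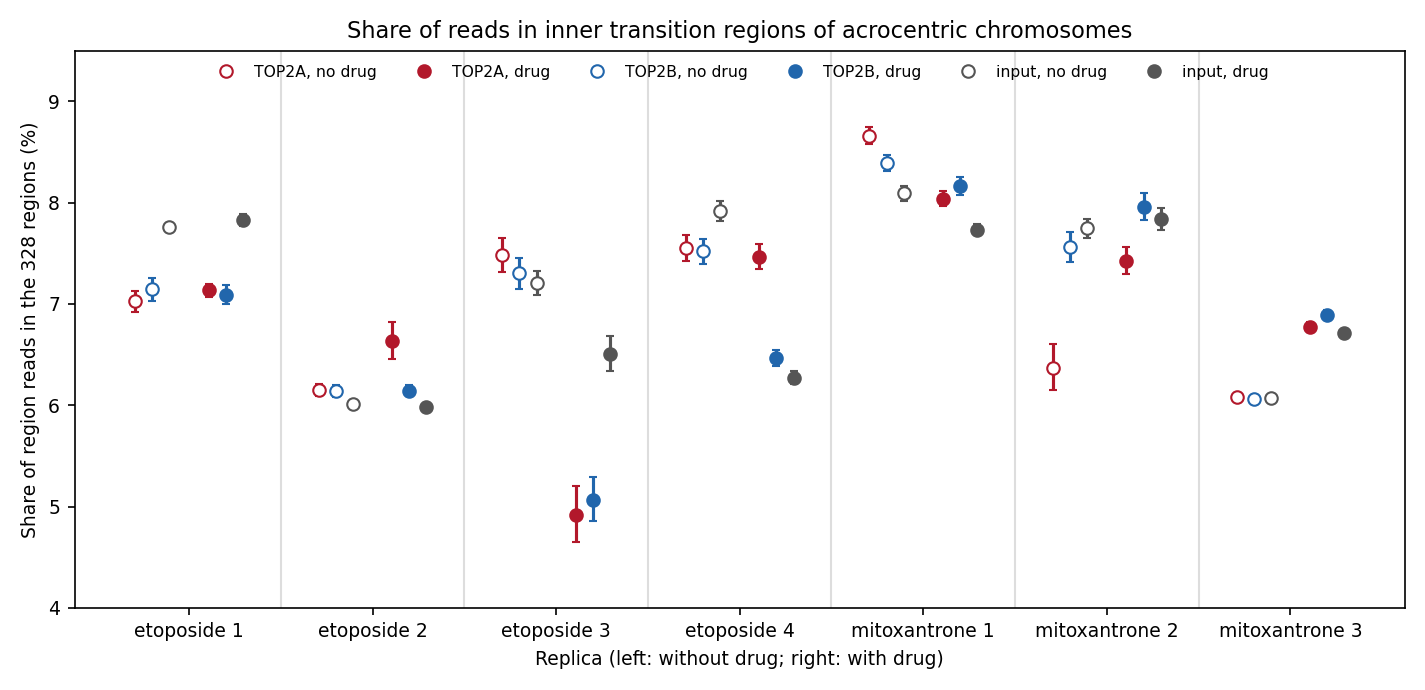
Share of region reads in the 328 members (percent, axis from 4) in each of 42 libraries, by replica. Open points are without drug, filled points with drug, colours give TOP2A, TOP2B and input, and bars are Wilson 95% intervals. TOP2A and TOP2B with drug in etoposide replica 3 are the lowest, at 4.92 and 5.07%, and TOP2A without drug in mitoxantrone replica 1 is the highest, at 8.66%.

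The members' share moved against that of monomeric alpha satellite, the older, divergent form of the centromere repeat. Monomeric alpha satellite took 0.303 to 4.13% of region reads over the 42 libraries. In mitoxantrone replica 3 it went from 3.92 to 0.73% in TOP2A, from 3.96 to 0.605% in TOP2B and from 3.85 to 1.01% in input, while the members' share rose. In etoposide replica 3 it went from 0.702 to 4.13%, from 0.875 to 3.95% and from 0.734 to 1.72%, while the share fell. In etoposide replica 4 TOP2B and input rose from 0.479 to 3.00% and from 0.721 to 3.13% as their member shares fell, and TOP2A, at 0.516 and 0.389%, kept its share. Over the 21 pairs of a drug library and the same replica's library without drug, the share changed in the direction opposite to monomeric alpha satellite in 16 and in the same direction in 5. Both are shares of the same region reads, the 3 pairs of a replica were made together, and the part of this shift in any drug difference was not tested. The share of the 436 inner transition regions of the other autosomes changed by log2 values of -0.42, -0.32 and -0.08 in TOP2A, TOP2B and input of etoposide replica 3. In mitoxantrone replica 3 it changed by 0.15, 0.17 and 0.13, so movement against monomeric alpha satellite was not particular to the members.

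Among the 5 members with the most reads, ct_22_99 and ct_22_102 on chromosome 22 varied most over the libraries. In ct_22_99 the etoposide TOP2A libraries held 11016, 7198, 13135 and 11805 CPM without drug in replicas 1 to 4 and 13859, 10049, 4351 and 13829 CPM with it. Its TOP2B libraries held 11706, 7239, 12624 and 12599 CPM without drug and 13795, 7224, 5871 and 8778 CPM with it. Its input held 16257, 7251, 12020 and 16315 CPM without drug and 16703, 7179, 10340 and 8538 CPM with it. The treated and untreated values overlapped in each kind, and only replica 3 fell in all 3 kinds. In the mitoxantrone series ct_22_99 rose in replica 3 from 6841 to 10378 CPM in TOP2A, from 7115 to 10872 CPM in TOP2B and from 7603 to 10473 CPM in input. In replica 1 it fell slightly in each kind, from 14375 to 12730, from 13493 to 12712 and from 12748 to 11795 CPM. In replica 2 TOP2A went from 10162 to 14576 CPM, TOP2B from 15497 to 16473 CPM and input from 14855 to 15600 CPM. Over the 42 libraries ct_22_99 thus spanned 4351 to 16703 CPM, and in 19 of the 21 drug pairs it changed in the direction opposite to monomeric alpha satellite.

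Several other large members changed in the same direction as ct_22_99 in most of the 21 drug pairs: ct_15_35 in 20, ct_13_47, ct_22_102 and ct_15_34 in 18 each, and ct_13_41 and ct_21_64 in 17 each. Others went mostly the other way: ct_21_66 changed in the opposite direction in 16 pairs and ct_15_36 in 15. These are counts of direction with no test, and the pairs share libraries' totals and, within a replica, their making. No share over all regions is given beside them. The summed inner transition regions of the other autosomes also fell in etoposide replica 3 and rose in mitoxantrone replica 3 in each kind, as ct_22_99 did. The steadiest of the 77 members with a mean of at least 50 reads was ct_15_36, with 5236 to 7249 CPM (SD of log2 CPM 0.14). Next to it in number, ct_15_35 ran from 4743 to 10777 CPM (SD 0.26). On chromosome 13 ct_13_47 ran from 11213 to 19525 CPM (SD 0.24), and on chromosome 22 ct_22_102 ran from 3138 to 11273 CPM (SD 0.53). The most variable were ct_14_18, from 0 to 429 CPM (SD 0.98), and ct_22_22, from 0 to 706 CPM (SD 0.94). The 0 values come from etoposide replica 3 with drug, where ct_14_18 had no read in TOP2B and ct_22_22 none in TOP2A, and a count of 3 is the limit that a count of 0 allows.

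**Figure D3:**
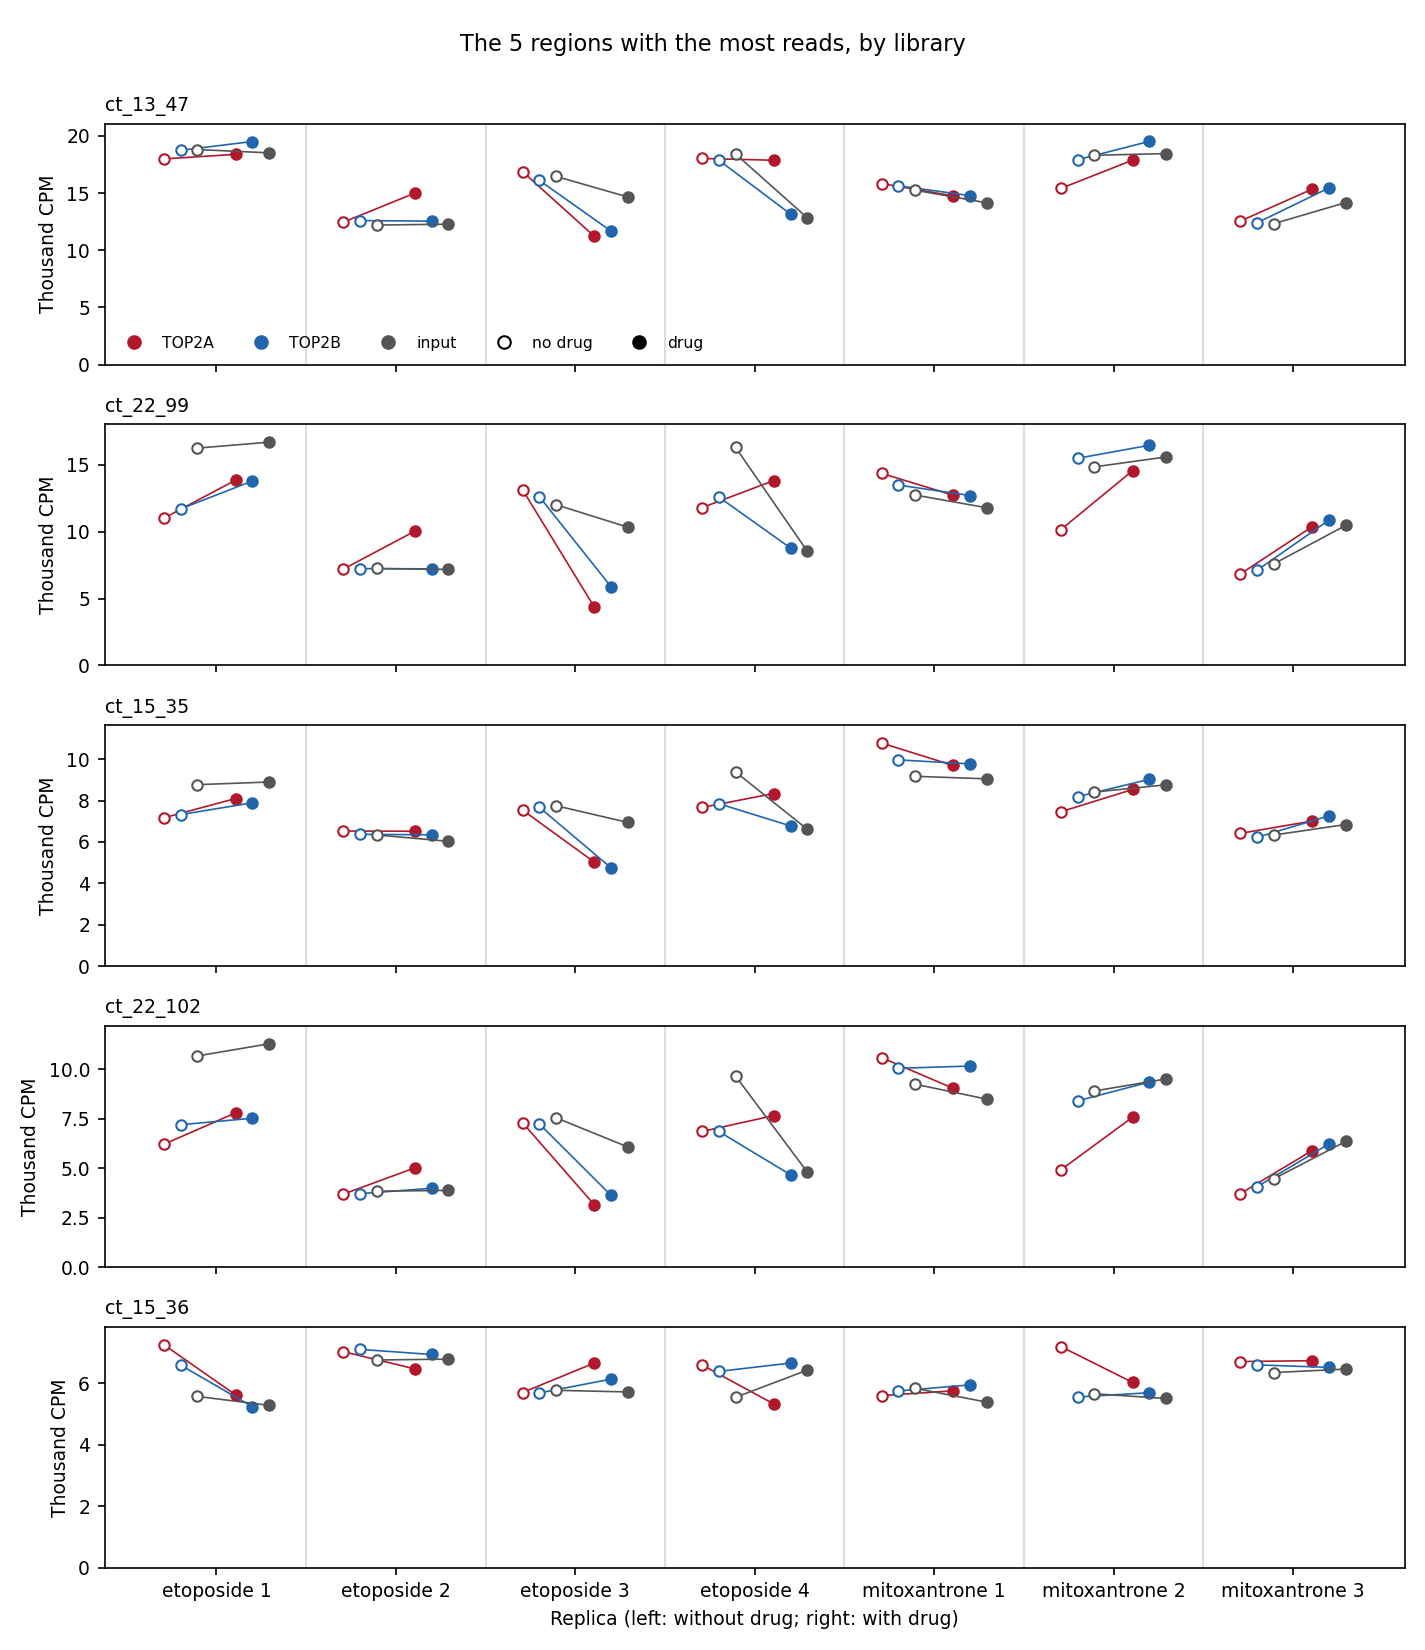
Level of the 5 members with the most reads in each of 42 libraries (in units of 1000 CPM, axes from 0), by replica. Open points are without drug, filled points with drug, lines join the pair of a replica, and colours give TOP2A, TOP2B and input. In etoposide replica 3 the lines of ct_13_47, ct_22_99, ct_15_35 and ct_22_102 fall in all 3 kinds, in mitoxantrone replica 3 they rise, and ct_15_36 stays between 5236 and 7249 CPM.

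For the 77 members with a mean of at least 50 reads, the replica described more of the spread between libraries than the kind of library did. The SD of log2 CPM over 42 libraries had a median of 0.50 (0.14 to 0.98), against 0.31 for counting error alone. Grouping by replica took a median of 48.3% of the variance, by replica and treatment 64.6%, by the 12 groups of the design 23.1% and by kind of library (TOP2A, TOP2B or input) 1.87%. Finer groupings take more variance by construction, with 7, 14, 12 and 3 sets. Each replica is also a sequencing run order of its own, except etoposide replicas 3 and 4 and mitoxantrone replica 2, which share one order and have 50 bp reads. For the other 4 replicas, replica and order cannot be told apart.

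The makeup of the member reads by chromosome shifted in the same way. Chromosome 22 held 28.7 to 42.8% of member reads, chromosome 13 23.6 to 31.7%, chromosome 15 20.9 to 27.3%, chromosome 21 4.75 to 9.10% and chromosome 14 3.81 to 7.89%. With etoposide the chromosome 22 share in TOP2A changed by 3.85, 2.56, -9.26 and 2.41 percentage points in replicas 1 to 4, a mean of -0.11 points (SD 6.13, n = 4). In TOP2B it changed by 2.17, 0.83, -5.93 and -2.92 points, and in input by 0.93, 0.27, -1.63 and -7.10 points. With mitoxantrone it changed in TOP2A by -1.17, 4.78 and 3.78 points in replicas 1 to 3, a mean of 2.46 points (SD 3.19, n = 3). TOP2B rose in all 3 replicas, by 0.21, 0.60 and 3.51 points, and input by -0.28, 0.57 and 3.12 points. The replicas did not share a direction for any of these but TOP2B with mitoxantrone, where the mean was 1.44 points and 1 replica gave most of it.

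No member passed the threshold in any test of a drug. Counts of all regions were fitted with edgeR's quasi-likelihood test, with 155 members among 1068 regions tested in the etoposide series and 198 among 1416 in the mitoxantrone series, and p-values were adjusted by Benjamini-Hochberg over all regions tested. Regions called at an adjusted p under 0.05 made up 0% of those tested in each of the 12 comparisons within a series, so the members' count of 0 equals the background. At an unadjusted p under 0.05 there was 1 member in TOP2A, 5 in TOP2B and 0 in input with etoposide, against 7, 8 and 0 of all regions. With mitoxantrone there were 0 members in each kind, against 5, 3 and 1 of all regions. These counts are well under the share of 0.05 that such a threshold passes where nothing changes. The fit did not pair the libraries of a replica, so its errors include the spread between replicas. A count of 0 called therefore says little about small changes. DESeq2 called 0 regions in each comparison and limma voom with the replica as a block called 0 in each of these 12. The lowest adjusted p of a member in any comparison was 0.996 in the main edgeR fit and 0.319 by edgeR with the replica as a block.

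The fitted drug changes of the members lay slightly below 0 with etoposide and around 0 with mitoxantrone. With etoposide 111 of 155 members were lower in TOP2A (median log2 change -0.15, against -0.05 over all regions), 108 in TOP2B (-0.19 against 0.07) and 94 in input (-0.09 against 0.09). Input, which holds no pulldown, thus lay below all regions as well, and further below them than TOP2A did. Scaled to all reads of a library the members' medians were -0.25 in TOP2A (all regions -0.13), -0.02 in TOP2B (0.24) and 0.08 in input (0.24), so the direction in input turned while the members stayed below all regions. Without etoposide replica 3 the TOP2A median was -0.08 against -0.12 over all regions, and with libraries of at least 100000 region reads only it was -0.08 against -0.20, so there the members were above all regions. The other inner transition regions of autosomes had medians of -0.07, -0.14 and -0.03. With mitoxantrone 99 of 198 members were lower in TOP2A (median 0.00, all regions -0.05), 100 in TOP2B (-0.00, all regions 0.01) and 105 in input (-0.01, all regions -0.05).

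**Figure D4:**
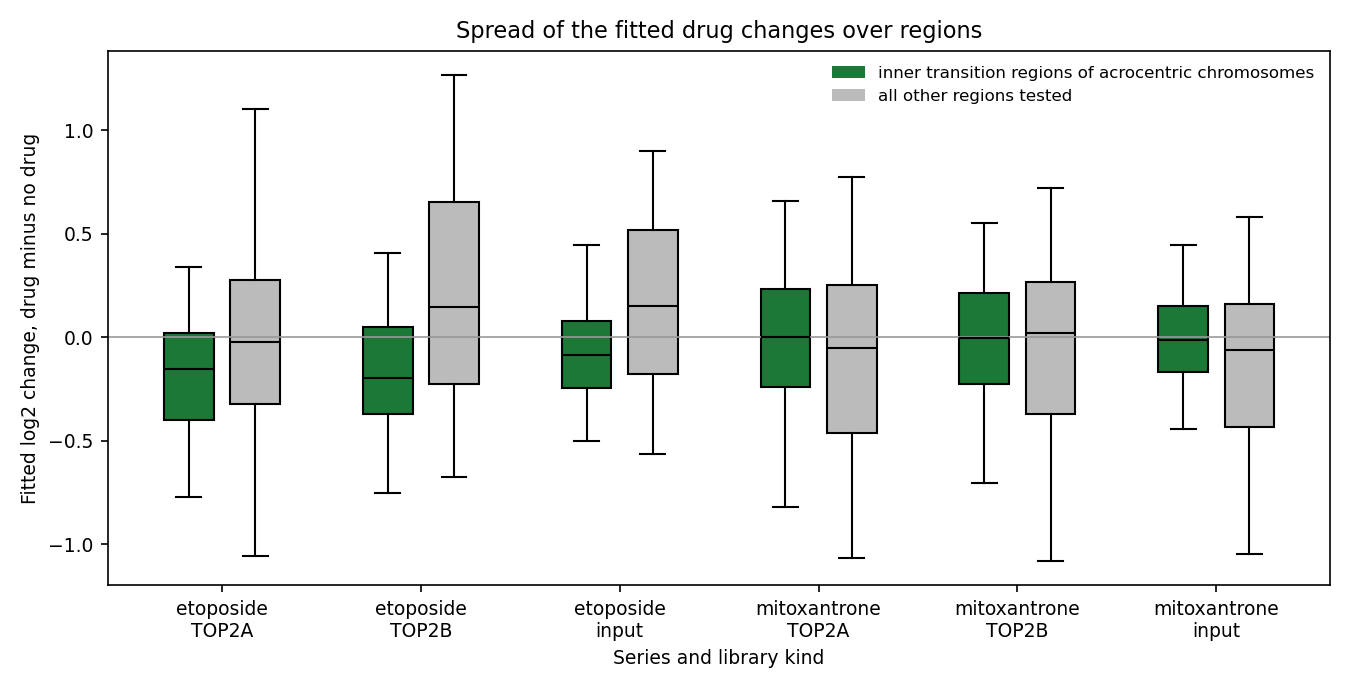
Spread over regions of the fitted log2 change with drug, for members (green; 155 in the etoposide and 198 in the mitoxantrone series) and all other regions tested (grey). Lines are medians, boxes the 25th to 75th percentile, and whiskers the 5th to 95th percentile. The green medians lie at -0.15, -0.19 and -0.09 with etoposide and at 0.00, -0.00 and -0.01 with mitoxantrone, and every box crosses 0.

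Counting direction over replicas gave a similar picture for the 77 members with a mean of at least 50 reads. With etoposide 13 were lower in all 4 replicas in TOP2A, 16.9% of them against 6.76% of the 547 regions of that depth. None was higher in all 4, against 1.83% of the regions. In TOP2B 11 were lower in all 4, 14.3% against 7.68%, and 2 were higher, 2.60% against 4.75%. In input 2 were lower, 2.60% against 3.84%, and 5 were higher, 6.49% against 12.2%. Without replica 3, 25 members were lower in all 3 replicas in TOP2A, 32.5% against 29.8% of the regions, and 6 were higher, 7.79% against 14.6%. The distance to the regions' share of lower counts was thus smaller in TOP2A without replica 3. In TOP2B 14 were lower, 18.2% against 11%, and in input 5, 6.49% against 5.85%. With mitoxantrone 10 members were lower in all 3 replicas in TOP2A, 10 of 77 against 5.85% of the regions, and 6 were higher. In TOP2B 12 were lower, 15.6% against 10.4%, and 7 were higher, 9.09% against 9.69%. In input 6 were lower, 7.79% against 7.86%, and 6 were higher, 7.79% against 8.59%.

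The members of unadjusted p under 0.05 are named here after their values were seen. In TOP2A with etoposide it was ct_22_73, which held 56.5, 91.7, 52.6 and 45.2 CPM without drug in replicas 1 to 4 and 13.9, 14.1, 0 and 22.1 CPM with it. It was lower with drug in 4 of 4 replicas and the 2 groups did not overlap, with a fitted log2 change of -1.85 (SE 0.61). Its adjusted p by edgeR over all regions was 0.999. Its mean was 21.9 reads per library, and in TOP2B it ran from 9.2 to 80.4 CPM without drug and from 25.6 to 73.7 CPM with it, higher with drug in 3 of 4 replicas. With mitoxantrone ct_22_73 in TOP2A went from 51.1 to 75.9, from 45.5 to 20.8 and from 70.8 to 48.7 CPM. In TOP2B with etoposide they were ct_13_18, ct_13_42, ct_22_30, ct_22_65 and ct_22_89, all lower, with fitted log2 changes from -1.29 (ct_13_18) to -0.54 (ct_13_42). Of these ct_13_42 was the deepest, with 312, 334, 369 and 500 CPM without drug and 256, 295, 205 and 331 CPM with it (SE 0.26). The adjusted p by edgeR was 0.996 for each of these 5. In TOP2A ct_13_42 went from 331 to 267, from 292 to 324, from 547 to 418 and from 407 to 370 CPM, lower in 3 of 4. Its input was lower with drug in 4 of 4 replicas too, from 269 to 250, from 326 to 305, from 417 to 310 and from 398 to 304 CPM.

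The largest members gave small fitted changes with wide errors. In TOP2A with etoposide ct_22_99 had a log2 change of 0.07 (SE 0.51) and ct_13_47 of -0.01 (SE 0.38). In TOP2B they had -0.32 (SE 0.51) and -0.23 (SE 0.38), and in input -0.37 (SE 0.51) and -0.28 (SE 0.38). The steadiest region, ct_15_36, had -0.15 (SE 0.17) in TOP2A, -0.14 (SE 0.17) in TOP2B and -0.09 (SE 0.17) in input. With mitoxantrone ct_22_99 had 0.32 (SE 0.40) in TOP2A, 0.22 (SE 0.40) in TOP2B and 0.10 (SE 0.40) in input, and ct_13_47 0.19, 0.20 and 0.04 (SE 0.30 each). Among named members with etoposide, ct_14_72 was lower in TOP2A in all 4 replicas, from 464 to 348, from 363 to 267, from 484 to 126 and from 381 to 276 CPM (fitted log2 change -0.57, SE 0.30, adjusted p = 0.999 by edgeR). Its TOP2B libraries were lower too, from 372 to 294, from 344 to 325, from 323 to 256 and from 352 to 305 CPM, and its input went from 280 to 249, from 369 to 341, from 406 to 414 and from 310 to 362 CPM. The groups overlapped in each kind but TOP2A, where the highest library with drug (348 CPM) lay below the lowest without (363 CPM). Other named members also did not overlap in TOP2A. In ct_22_98 the etoposide TOP2A libraries held 1275 to 1511 CPM without drug and 628 to 1267 CPM with it. In ct_14_70 they held 123 to 173 CPM and 42 to 105 CPM. The share of all regions without overlap is not given here.

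Pulldown and input were compared without drug over all 7 replicas, to see whether either isoform was found on these regions above input. The members' share of region reads was close to that of input: the mean log2 ratio within replicas was -0.04 for TOP2A (SD 0.13, n = 7, higher in 4) and -0.02 for TOP2B (SD 0.06, higher in 3). In the fit over 42 libraries 188 members were among 1372 regions tested, and 0% of regions, and so 0 members, were called for TOP2A over input, for TOP2B over input and for TOP2A over TOP2B. The median log2 difference of the members was 0.03 for TOP2A over input (all regions -0.04) and 0.02 for TOP2B over input (all regions -0.04). At an unadjusted p under 0.05 there were 2 and 3 members, against 29 and 10 of all regions, and DESeq2 called 0 regions. With the limma voom fit 9 and 2 regions were called, none of them a member. The edgeR fit did not pair libraries of a replica, so its errors include the spread between replicas. With the replica as a block, the lowest adjusted p of a member by edgeR in any comparison was 0.319.

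Within this small mean, ct_22_102 and ct_22_99 leaned to input, and the sum of the members outside the 5 largest leaned to the pulldowns. The mean log2 ratio of TOP2A over input was -0.33 for ct_22_102 (SD 0.40, lower in 6 of 7) and -0.21 for ct_22_99 (SD 0.32, lower in 5 of 7). For TOP2B it was -0.18 (SD 0.25, lower in 6 of 7) and -0.10 (SD 0.23, lower in 4 of 7). The edgeR fit gave ct_22_102 -0.49 (SE 0.36, adjusted p = 0.998) and -0.32 (SE 0.36, adjusted p = 1.00). The largest member, ct_13_47, had -0.03 (SD 0.11) and -0.00 (SD 0.03). Not all of the 5 largest leaned to input. In the etoposide replicas ct_15_36 held 7249, 7021, 5694 and 6587 CPM in TOP2A, against 5567, 6749, 5765 and 5538 in input. In the mitoxantrone replicas it held 5594, 7184 and 6699 CPM in TOP2A, against 5830, 5652 and 6342 in input. The 323 other members summed, all but the 5 with the most reads, were higher than input in 6 of 7 replicas for each isoform, with mean log2 ratios of 0.09 (SD 0.16) and 0.07 (SD 0.11), both within their SD. Mitoxantrone replica 2 was the exception for both, with -0.20 and -0.09, and its TOP2A library without drug had 43988 region reads. A lean to the pulldowns was not particular to members. Over the 547 regions averaging at least 50 reads the median of the mean log2 ratios was 0.08 for TOP2A and 0.08 for TOP2B. The 77 members of that depth had medians of 0.09 and 0.08.

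The ends of the ratio ranking, chosen on these ratios and so given with no test, were held by smaller members of chromosomes 14, 21 and 22. The highest TOP2A over input was that of ct_21_58, at 0.55 (SD 0.52), with 77, 75, 95 and 136 CPM in TOP2A against 35, 90, 56 and 60 CPM in input in the etoposide replicas and 151, 68 and 93 against 118, 54 and 85 CPM in the mitoxantrone replicas. It was higher in TOP2A in 6 of 7 replicas and in TOP2B in 7 of 7. The highest TOP2B over input was that of ct_14_63, at 0.46 (SD 0.32, higher in 7 of 7), and its TOP2A ratio was 0.12 (SD 0.62, higher in 4 of 7). Second highest were ct_14_70 for TOP2A, at 0.47 (SD 0.52), and ct_22_48 for TOP2B, at 0.35 (SD 0.51). The lowest for both isoforms was ct_14_18, at -0.73 (SD 1.21) for TOP2A and -0.47 (SD 0.37) for TOP2B. Its TOP2A ratios ran from -2.94 in mitoxantrone replica 2, where 1 read was counted, to 0.36 in mitoxantrone replica 1. Second lowest were ct_14_66 for TOP2A, at -0.71 (SD 0.93), and ct_22_22 for TOP2B, at -0.46 (SD 0.56). For ct_14_66, ct_14_18 and ct_22_22 the SD of the TOP2A ratio exceeded its mean, and replicas lay on both sides of 0.

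**Figure D5:**
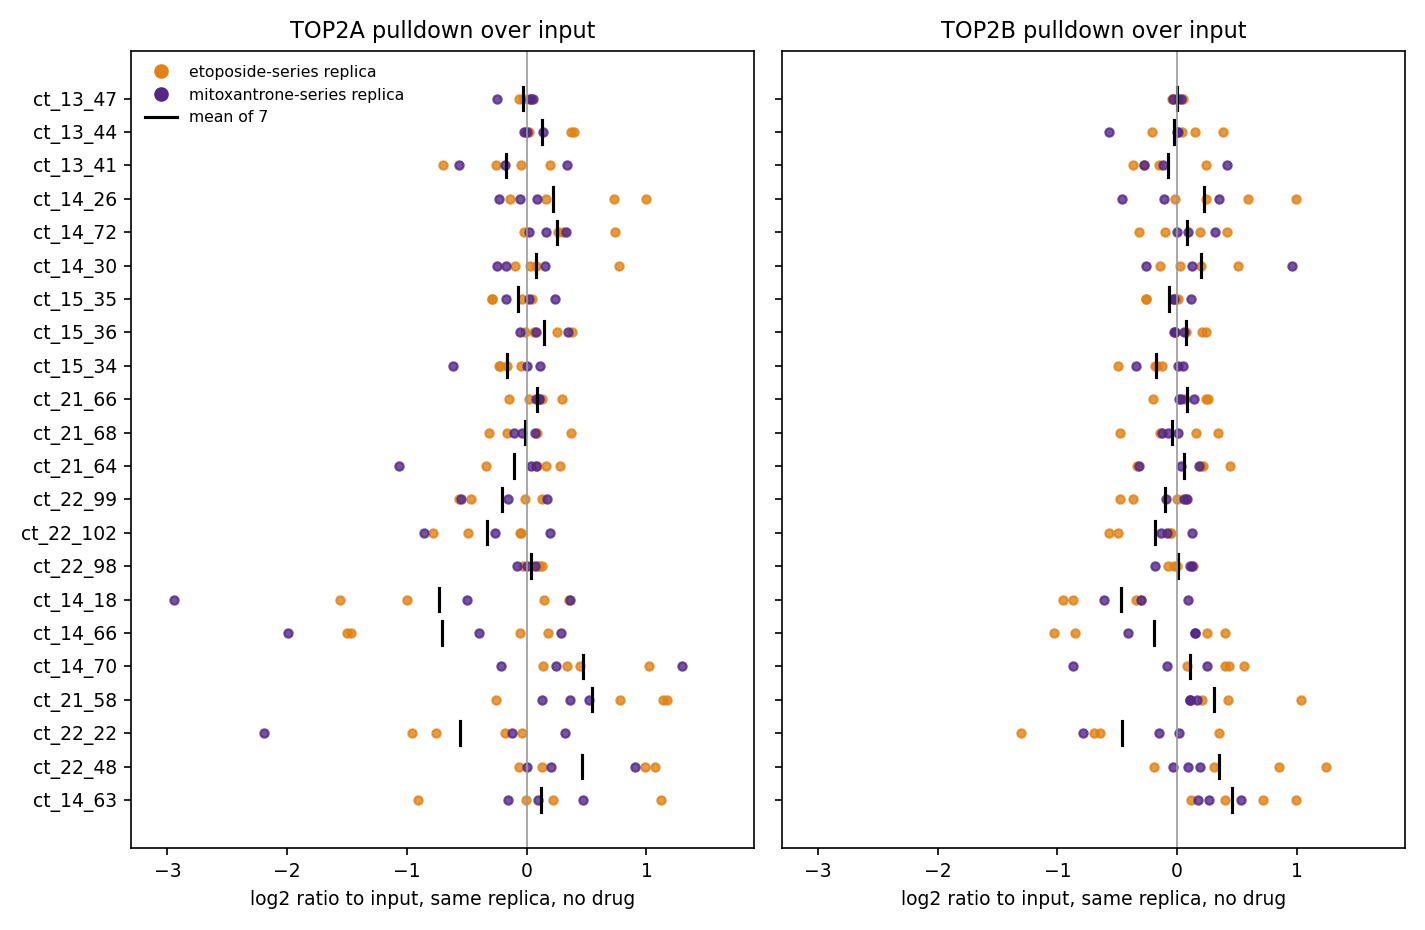
Log2 ratio of pulldown over input within each of 7 replicas without drug, for the 22 named members (left TOP2A, right TOP2B). Orange points are etoposide-series replicas, purple points mitoxantrone-series replicas, and black bars the means. Points of most members lie on both sides of 0, ct_13_47 has the narrowest spread in TOP2B, and ct_14_18 the widest in TOP2A.

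Members of unadjusted p under 0.05 for pulldown over input, again named after their values were seen, were ct_14_31 and ct_13_22 for both isoforms and ct_13_18 for TOP2B. In TOP2A without drug ct_14_31 held 101, 109, 105 and 84 CPM in the etoposide replicas and 93, 68 and 84 CPM in the mitoxantrone replicas, and input held 32, 101, 50, 53, 52, 63 and 77 CPM. It was higher in TOP2A in 7 of 7 replicas and in TOP2B in 5 of 7, with fitted log2 differences of 0.51 (SE 0.24) and 0.56 (SE 0.24). In ct_13_22, which had no read in 5 of the 42 libraries, the differences were -1.27 (SE 0.55) and -1.22 (SE 0.55), lower in 6 of 7 replicas for each. For ct_13_18 TOP2B over input was 0.80 (SE 0.36), higher in 6 of 7. The adjusted p by edgeR was 0.998 for the TOP2A and 1.00 for the TOP2B differences.

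With etoposide the ratios of pulldown to input spread more widely over replicas than without drug, and with mitoxantrone they stayed close to 0. Under etoposide the mean log2 ratio of the members' share to that of input was -0.03 in TOP2A (SD 0.30, n = 4) and -0.11 in TOP2B (SD 0.19), with replica 3 lowest in both, at -0.40 and -0.36. Under mitoxantrone it was -0.00 in TOP2A (SD 0.07, n = 3) and 0.05 in TOP2B (SD 0.03), where all 3 replicas were higher, at 0.08, 0.02 and 0.04. The test of the drug change in a pulldown against that in input, which is the change beyond input, called 0% of regions for each isoform and drug. The members' medians there were -0.12 for TOP2A and -0.09 for TOP2B with etoposide (all regions -0.11 and -0.00), and 0.01 and 0.03 with mitoxantrone (all regions 0.03 and 0.05). At an unadjusted p under 0.05 this named ct_22_73 for TOP2A with etoposide, with a log2 difference of -1.81 (SE 0.80), and no other member.

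The isoforms did not differ beyond their spread on these regions. Without drug the mean log2 ratio of TOP2A to TOP2B in the members' share was -0.03 (SD 0.10, n = 7), and mitoxantrone replica 2 had -0.25 and the others -0.02 to 0.05. By region, 99 of 188 members were higher in TOP2A and the median difference was 0.01. Among the named members, ct_21_64 was lower in TOP2A than in TOP2B in 7 of 7 replicas, by a mean log2 ratio of -0.17 (SD 0.26), and 3 of the 7 differences were within 0.10. In mitoxantrone replica 2 ct_21_64 held 205 CPM in TOP2A, from 9 reads, and 359 CPM in TOP2B. Of the 77 members averaging at least 50 reads, 2 were lower in all 7 replicas, against 1.65% of the 547 regions of that depth. The drug change in TOP2A against that in TOP2B had member medians of 0.00 in both series. For etoposide 1 member, ct_22_73, had an unadjusted p under 0.05, at -2.06 (SE 0.82).

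The 2 drugs were compared by the difference of their changes, in the fit over 42 libraries. Regions called made up 0% for TOP2A and 0% for TOP2B. The members' median difference, etoposide minus mitoxantrone, was -0.26 in TOP2A (131 of 188 lower; all regions -0.13) and -0.16 in TOP2B (113 lower; all regions 0.08). Scaled to all reads it was -0.18 and 0.10, so in TOP2B the direction turned, and all regions stood at -0.04 and 0.32. With libraries of at least 100000 region reads only, the TOP2A median was -0.01, against -0.21 over all regions. Doses and replicas differed between the drugs, and so did the sequencing orders, with 1 order shared by replicas of both series. At an unadjusted p under 0.05 there was 1 member in each, ct_22_73 in TOP2A (-1.70, SE 0.78) and ct_21_28 in TOP2B (-2.07, SE 1.01), with means of 33.8 and 8.0 reads per library.

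The 5 q_arm transition regions of the acrocentric chromosomes changed with etoposide by a mean log2 share ratio of 0.04 in TOP2A (SD 0.09) and 0.03 in TOP2B (SD 0.07), and in replica 3 they rose by 0.18 and 0.13 where the members fell. The 436 inner transition regions of the other autosomes fell in replica 3 by 0.42 in TOP2A and 0.32 in TOP2B, in the direction of the members. Against those regions as the denominator, the members' change in replica 3 was -0.18 in TOP2A and -0.20 in TOP2B, and the mean over 4 replicas was -0.04 (SD 0.10) and -0.06 (SD 0.10). The 5 ribosomal DNA arrays, with log2 changes from -1.16 to 1.25 over the 4 replicas in TOP2A and from -2.36 to 0.04 in TOP2B, ranged more widely. Beta satellites of the acrocentric chromosomes, 65 regions, were lower than input without drug in 6 of 7 replicas for each isoform, with mean log2 ratios of -0.63 (SD 0.51) and -0.52 (SD 0.42), where the members stood at -0.04 and -0.02. The difference between these classes was not tested.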

How the data were processed

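Topoisomerase II pulldown and input DNA of KG-1 cells was sequenced in 42 libraries. Trimmomatic 0.36, BWA 0.7.17, HTSeq (version string 2.7.13) and the build T2T-CHM13 are named in the submitters' processing notes. Neither the mapping quality cut nor the counting of single reads or pairs is given in the sources used here. The authors deposited raw counts per region: 2523 regions and 5 tallies of unassigned reads, with a column for each library. The tallies hold low-quality reads (21.1 to 68.3%) and reads outside any region (29.1 to 73.4%), and were left out of library sizes and tests. Repeated sequence and read length bear on which reads map uniquely, so levels of regions and of replicas with other read lengths are not strictly comparable.

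CPM is reads in 1000000 region reads. Ratios within a replica use log2 CPM with 0.5 reads added. Shares carry Wilson 95% intervals. Region counts were tested with edgeR 4.0.16 (TMM factors, filterByExpr with a minimum count of 10, quasi-likelihood test, two-sided, Benjamini-Hochberg over all regions tested, threshold 0.05) in R 4.3.3. The fits took the 24 etoposide, 18 mitoxantrone or all 42 libraries for 17 comparisons. They were checked on simulated counts with large changes and no replica effect, so this check did not cover small changes or spread between replicas. DESeq2 1.42.0 and limma 3.58.1 (voom), other scalings, no filter, a replicate block, libraries of at least 100000 region reads (chosen after seeing the data, as was the count of directions without etoposide replica 3) and leaving out each replica were alternatives. Named members are the 3 with the highest mean CPM per chromosome, any past the threshold, and the 2 highest and 2 lowest mean ratios of each isoform over input among members averaging at least 50 reads. The members and lists were chosen with earlier results of these data known, and no sum over members was tested.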

Additional observations from a re-analysis of the deposited data

Results flagged for a closer look

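In groups of 4 libraries, a value was marked where the gap from the highest or lowest library to its neighbour was close to the group's whole range. This was checked in 174 cases over 29 quantities, 11 were marked, and chance marks about 1 in 20. The groups of 3 mitoxantrone replicas were too small for it.

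In etoposide replica 2, TOP2B without drug was marked 3 times: chromosome 15 took 26.5% of member reads (next 22.7%), ct_22_99 stood at 7239 CPM (next 11706) and ct_22_102 at 3705 CPM (next 6845). TOP2A without drug of that replica had the lowest ct_15_34, at 338 CPM (next 399). In etoposide replica 3 with drug, ct_15_34 was lowest in TOP2B at 103 CPM (next 359), ct_14_70 was lowest in TOP2B at 25.6 CPM (next 115), ct_22_98 was lowest in TOP2A at 628 CPM (next 1194) and ct_22_48 was highest in TOP2A at 460 CPM (next 183). These rest on libraries of 39003 and 23900 region reads. In etoposide replica 1 with drug, chromosome 21 took 4.93% of TOP2B member reads (next 7.44%) and ct_14_26 stood at 310 CPM in input (next 439). In etoposide replica 4 without drug, ct_22_22 was highest in TOP2B at 216 CPM (next 131). In none of 87 comparisons did all etoposide replicas move one way and all mitoxantrone replicas the other.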

How the results depend on the processing

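The count of called members was 0 in each of 213 values, over 17 comparisons and their alternatives, and from 0 to 0 without each replica in turn. With the replicate block the lowest adjusted p of a member was 0.319 by edgeR and 0.184 by limma voom, against 0.996 without it, and the block called 1 region, no member, for TOP2B over input. Libraries of the same replica number correlated over 0.1 in 18 of 21 drug pairs (-0.58 to 0.95 over 547 regions). The other 3 were TOP2A of etoposide replica 3 (-0.22) and TOP2B and input of etoposide replica 4 (-0.36 and -0.58). Since not every pair passed, the test without the block was kept, and its errors include the spread between replicas. This check did not cover pairs of pulldown and input or of TOP2A and TOP2B, whose tests also left out the block. Of 4312 alternative values for 374 results of named members, 4256 stayed within an SE of the first fit, 56 moved further, 518 changed sign and 0 were called.

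Leaving out a replica, the mean log2 change of the members' share ranged from -0.20 to 0.04 in TOP2A, -0.25 to -0.08 in TOP2B and -0.16 to -0.05 in input with etoposide. With mitoxantrone it ranged from 0.02 to 0.19, 0.02 to 0.13 and -0.02 to 0.08. For TOP2A over input, TOP2B over input and TOP2A over TOP2B without drug it ranged from -0.07 to -0.00, -0.03 to -0.00 and -0.04 to 0.01. For TOP2A and TOP2B over input with drug it ranged from -0.13 to 0.09 and -0.15 to -0.02 under etoposide, and -0.03 to 0.03 and 0.03 to 0.06 under mitoxantrone. With all reads as the denominator the last of these, TOP2B over input under mitoxantrone, was 0.0899 in place of 0.05; the cause was not tested. Depth limits the smaller members: 173 members were not tested in the etoposide series.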
